A study of Drosophila melanogaster with 24 samples.

Results

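The genes described here are the transcription factor gene ovo and genes that act under it when epidermal cells of the Drosophila embryo build denticles and other apical extensions. They were chosen by name as 10 genes: ovo, sha, mwh, f, sn, dyl, m, nyo, tyn and pio. Of the 17559 gene rows in the counts table, 9 matched these names, and all 9 passed the filter on low counts. tyn, which encodes a zona pellucida (ZP) domain protein, was not matched to a row and was not analysed here.

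RNA was measured in whole embryos collected 2 to 4 h after egg laying, and 24 libraries were made, 4 biological replicates for each of 6 genotypes. The genotype names describe the mothers. Control embryos (tub-GAL4/+) came from mothers with only the maternal driver matalpha4-GAL-VP16 from a w strain, and the mothers of all other genotypes carried it too. In the mothers of HDAC3 shRNA embryos (tub-GAL4/shRNA HDAC3) the driver expressed, in the germline, a short hairpin against the histone deacetylase gene HDAC3. The hairpin came from a y sc v sev stock. Rescue embryos were of 4 kinds (WT, K26A, HEBI and Y303F, each named rescue in the labels). Their mothers had the same driver and hairpin plus an shRNA-resistant HDAC3 transgene under its own promoter, all at the attP40 landing site. Which of these each embryo in a pool inherited is not stated. The Y303F change lies in the active site, and the K26A and HEBI changes were modelled on mammalian changes that affect corepressor binding. In the study's assays in S2 cells each change lowered deacetylase activity to a comparable degree. Binding to the corepressor SMRTER was weakly reduced by K26A, strongly reduced by HEBI and little changed by Y303F. Each library came from a pool of embryos. The study states that endogenous HDAC3 transcript was also present in the Y303F embryos, which limits this genotype as a model of the mutant protein alone.

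Denticles are actin-filled points on the apical face of embryonic epidermal cells, which the cuticle later covers. The somatic product of ovo, known as Shavenbaby, is made as a repressor. It becomes an activator when small peptides of the tal gene bring the ubiquitin ligase Ubr3 to it, and it then switches on genes for the actin core and for the extracellular matrix at the cell tip. ovo has separate promoters for the epidermis and for the female germline. The counts are per gene over 5 annotated transcripts and cannot tell these products apart.

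The library totals ran from 9.99 to 26.6 M counts with a median of 19.6 M. HDAC3 itself was listed at 0 in all 24 libraries, as was CG45100, which shares its exons, so neither the knockdown nor the transgenes could be checked and genotypes are as labelled. Replicates 1 and 2 split from replicates 3 and 4. Deviations from the genotype means correlated at a median of 0.40 between other numbers on the same side and -0.51 across the sides. Deviations within a genotype sum to 0, so negative values between numbers follow in part from this centring. A first principal component held 48.1% of the variance, and its relation to this split was not tested. Libraries of the same number deviated together, so a fit blocked on that number is given for members, and for the other lists where it changes their count of calls. In bulk embryos, fewer cells of a type and less RNA per cell cannot be told apart, and the same holds for younger embryos in a pool.

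Levels are given as CPM, counts per M of the TMM-scaled library. Per kb of exon, the actin-bundling gene sn was by far the most abundant member in the control, at 98.1 ± 22.7 CPM per kb (SD, n = 4). dyl followed at 6.91 ± 3.58, ovo at 6.08 ± 1.14, pio at 4.01 ± 2.66, mwh at 2.82 ± 0.955, nyo at 2.71 ± 1.13, m at 2.37 ± 0.706, sha at 1.38 ± 0.549 and f at 0.374 ± 0.135 CPM per kb. From dyl to m, neighbours in this order lay closer together than the larger of their SDs, whereas sn, sha and f stood apart from their neighbours by more than both SDs. In HDAC3 shRNA embryos sn and ovo held the first places, at 135 ± 20.3 and 11.2 ± 4.48 CPM per kb, and pio came next at 1.57 ± 1.10 CPM per kb.

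**Figure D1:**
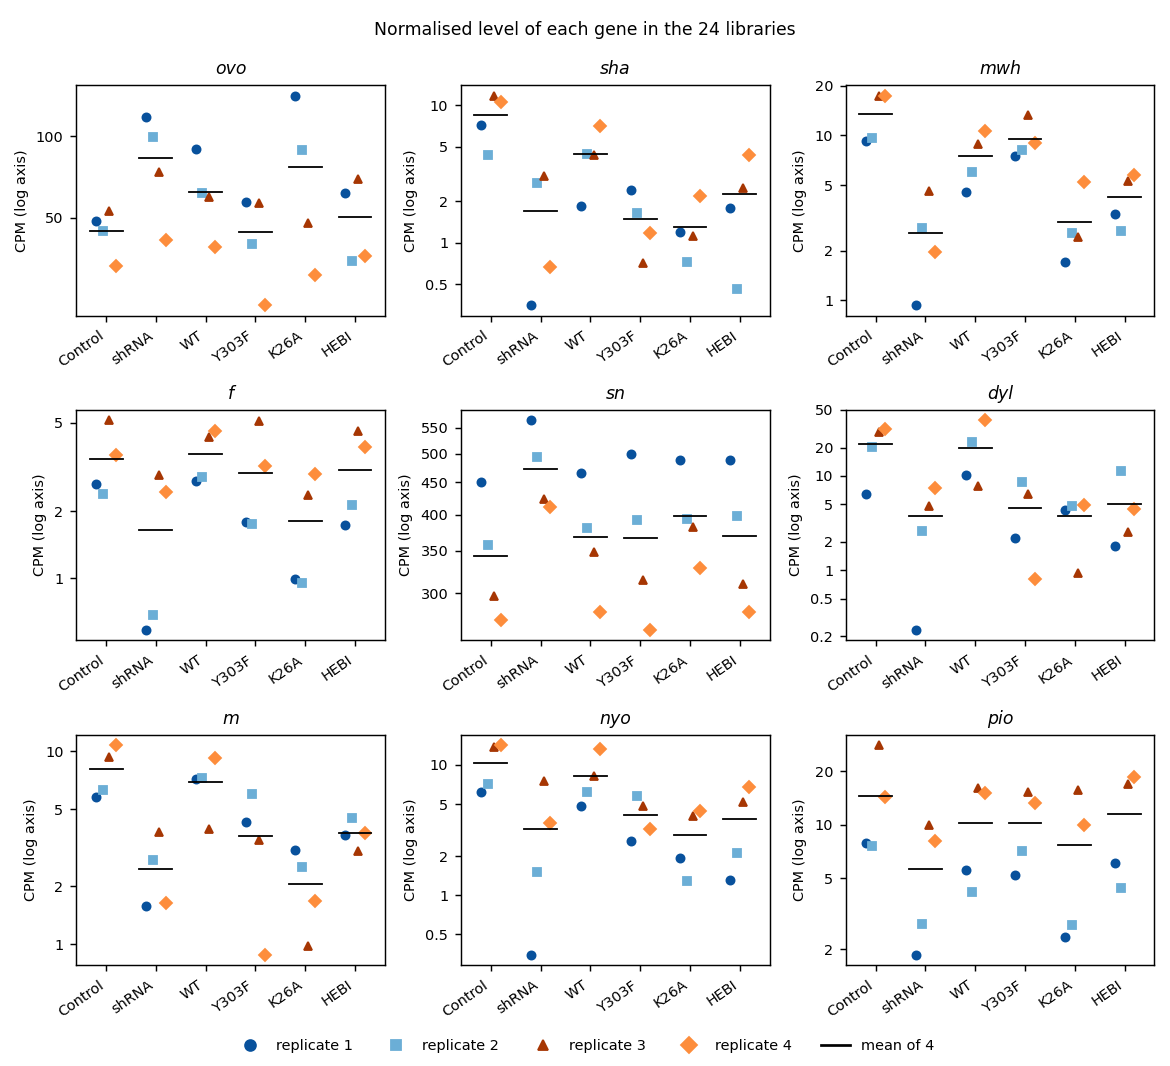
Level of each gene in CPM (log axis) in the 24 libraries, by genotype, with 1 symbol per replicate number and a line at the mean of 4. sha, mwh, f, dyl, m, nyo and pio are lower in HDAC3 shRNA than in Control within every replicate number, and ovo and sn are higher.

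To ask what the loss of maternal HDAC3 does to these genes, HDAC3 shRNA was set against Control. mwh, sha and m were called lower, at an adjusted p of 0.05 or less and a change of at least 2-fold, and dyl, nyo, pio and f had lower means without passing the test. ovo and sn, in contrast, had higher means in the knockdown, again without passing. So 3 of 9 members fell, while 6.97% of the 10003 genes tested were called lower and 8.37% were called in either direction. The members' median log2 fold change was -1.66, against 0.013 over all genes tested. Their CPM ranges did not overlap with the control for mwh, sha and m, a separation downward that 8.67% of all tested genes showed.

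mwh (FBgn0264272, 3L from 1200786 to 1232700, plus strand, dm6) encodes a formin-like protein that limits where actin filaments grow, so that a wing cell makes a single hair. It stood at 9.26, 9.66, 17.4 and 17.2 CPM in control replicates 1 to 4 and at 0.934, 2.73, 4.62 and 1.96 CPM in HDAC3 shRNA. Every knockdown library was below every control library. The log2 fold change was -2.38 (SE 0.45, edgeR quasi-likelihood test, Benjamini-Hochberg adjusted p = 0.00216). The call remained in all 24 fits that left out a library, with adjusted p from 0.00102 to 0.0103, and in replicates 1 and 2 alone (-2.35, adjusted p = 0.00538) and replicates 3 and 4 alone (-2.43, adjusted p = 0.0140).

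sha (FBgn0003382, 2R from 11324314 to 11336463, plus strand) is needed for denticles and hairs to form their actin-rich extension. Its levels were 7.14, 4.35, 11.7 and 10.6 CPM in the control and 0.350, 2.73, 3.05 and 0.666 CPM in the knockdown. These groups did not overlap either, although the knockdown libraries spread widely among themselves. The log2 fold change was -2.31 (SE 0.65, edgeR adjusted p = 0.0277). The sha call was lost without control replicate 3 (adjusted p = 0.0782) or 4 (0.0630) or without HDAC3 shRNA replicate 1 (0.0847) or 4 (0.0718).

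m (FBgn0002577, X from 11754273 to 11769508, plus strand) encodes Miniature, a ZP domain protein that ties the apical membrane to the cuticle. The m gene stood at 5.76, 6.32, 9.36 and 10.8 CPM in the control and at 1.58, 2.73, 3.83 and 1.65 CPM in the knockdown, with no overlap. Its log2 fold change was -1.72 (SE 0.46, edgeR adjusted p = 0.0199). The call for m was lost without control replicate 3 (0.0611) or 4 (0.0615) or without HDAC3 shRNA replicate 1 (0.0794), 2 (0.0516) or 4 (0.0584).

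The other ZP domain members moved the same way with larger spreads. dyl (FBgn0066365, 3L from 4294004 to 4307718, minus strand), whose product shapes the matrix over denticles and bristles, was at 6.50, 20.04, 29.1 and 31.2 CPM in the control and at 0.233, 2.63, 4.81 and 7.45 CPM in the knockdown. The highest knockdown library overlapped only with control replicate 1. The log2 fold change of dyl was -2.51 (SE 0.85, edgeR adjusted p = 0.0629), and it was called without control replicate 1 (-2.85, 0.0374) or rescue Y303F replicate 4 (-2.57, 0.0480).

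nyo (FBgn0039852, 3R from 31543032 to 31566165, plus strand) stood at 6.16, 7.10, 13.8 and 14.2 CPM in the control against 0.350, 1.51, 7.52 and 3.61 CPM in the knockdown. The nyo groups overlapped through HDAC3 shRNA replicate 3. Without that library nyo was called lower (log2 fold change -2.48, edgeR adjusted p = 0.0217), and with it the change was -1.66 (SE 0.65, adjusted p = 0.110). pio (FBgn0020521, 2R from 24581245 to 24597862, plus strand), whose ZP protein holds the apical cell surface to the matrix of the tracheal tubes and epidermis, was at 7.93, 7.57, 28.0 and 14.3 CPM in the control and 1.87, 2.78, 9.92 and 8.07 CPM in the knockdown. Its log2 fold change was -1.35 (SE 0.68, adjusted p = 0.230).

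The espin-like actin crosslinker gene f (FBgn0262111, X from 17232942 to 17280964, plus strand) was the least abundant member per kb in every genotype except Y303F, where sha was lower. f stood at 2.66, 2.39, 5.13 and 3.57 CPM in the control and at 0.583, 0.683, 2.90 and 2.43 CPM in HDAC3 shRNA. Its groups overlapped, and both were lower in replicates 1 and 2 than in replicates 3 and 4. The log2 fold change of f was -1.05 (SE 0.52, edgeR adjusted p = 0.219).

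ovo (FBgn0003028, X from 5048273 to 5070929, plus strand) was at 48.7, 44.8, 53.0 and 33.3 CPM in the control and at 118, 99.04, 73.8 and 41.4 CPM in the knockdown. It was higher than in the control of the same number in 4 of 4 pairs, and the ranges overlapped. The log2 fold change was 0.88 (SE 0.41, edgeR adjusted p = 0.181). In replicates 1 and 2 alone ovo was called higher (1.19, adjusted p = 0.0194), and in replicates 3 and 4 alone it was not (0.38, adjusted p = 0.621). sn (FBgn0003447, X from 7964024 to 7986601, plus strand) encodes fascin, which bundles actin in bristles, denticles and the nurse cells of the ovary. Control libraries held 451, 358, 296 and 272 CPM of sn, and knockdown libraries 565, 494, 423 and 411 CPM, also higher in 4 of 4 pairs. This difference of 0.46 on the log2 scale (SE 0.22, adjusted p = 0.197) did not pass. 3.39% of the exon bases of sn lie in exons of sws, against 0.338% for ovo, 0.511% for f and 0 for the other measured members.

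With the replicate number as a block, all 7 genes other than ovo and sn were called lower in HDAC3 shRNA, while 17.3% of all genes tested were called lower in the same fit. The blocked log2 fold changes were -2.58 for dyl (adjusted p = 0.00466), -1.24 for f (5.79e-04), -1.92 for nyo (0.00102) and -1.45 for pio (4.18e-05), the genes that did not pass before. In this fit ovo had a change of 0.80 (adjusted p = 0.00908) and sn of 0.48 (1.93e-05), both past the p threshold and under 2-fold. Taken pair by pair, each of the 7 genes was lower in the knockdown than in the control of the same number in all 4 numbers, 28 of 28 ratios, with a median log2 ratio of -1.96 and a range from -4.80 to -0.56. ovo and sn were set apart after they were seen to rise, so this one-sided count follows in part from that choice. The same limit holds for such counts below. The share of all genes that were lower in every pair was not computed. DESeq2 called 5 members lower (dyl, m, mwh, nyo and sha), against 9.5% of the genes it tested. With only the libraries of these groups in the fit, mwh alone was called, against 1.65% of all genes. In replicates 1 and 2 alone 5 were called lower (f, m, mwh, nyo and pio) and ovo higher, against 18.2% of all genes in either direction. In replicates 3 and 4 alone 4 were called lower (mwh, nyo, pio and sha), against 598 of 10279 genes called lower.

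**Figure D2:**
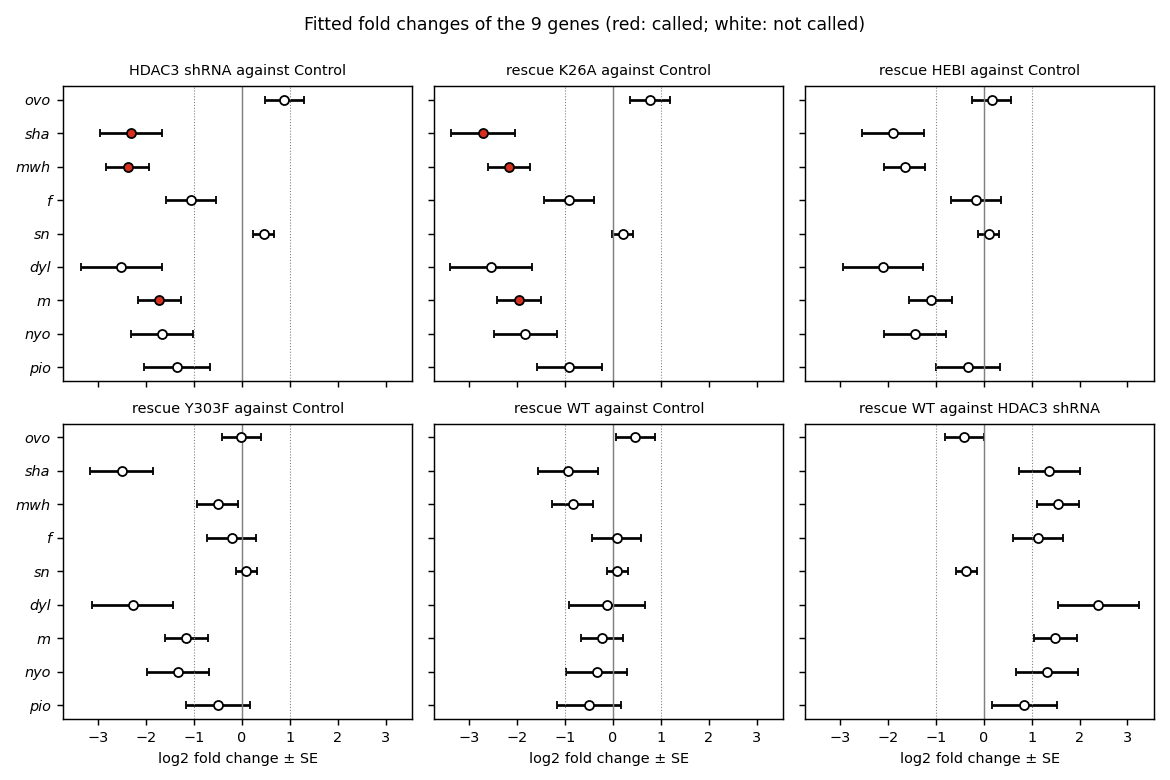
Fitted log2 fold change of each gene (points) with its SE (bars) in 6 comparisons, with dotted lines at a 2-fold change. Red points passed the test: mwh, sha and m in HDAC3 shRNA and in rescue K26A against Control, with changes from -2.70 to -1.72.

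The rescue WT transgene was compared with both ends to see how far it restored these genes. No member was called against Control (0.33% of all genes were), and none was called against HDAC3 shRNA, where 1.04% of genes were called and 0.88% were called higher. At an unadjusted p below 0.05 there were 0 members against Control (5.91% of all genes) and 5 against HDAC3 shRNA (11.4%). DESeq2 called 0 (1.15% of its genes) and 2, m and mwh (3.1%). In replicates 1 and 2 alone f, m and nyo were called higher than in the knockdown, against 3.67% of all genes. In replicates 3 and 4 alone 0 members were called against the knockdown, while 95 of 10279 genes were. The means of the 7 genes stood at 52.0% to 106% of the control mean in rescue WT, with a median of 79.2%, against 17.4% to 48.0% and a median of 30.4% in HDAC3 shRNA. Against the knockdown the log2 fold changes were 2.39 for dyl (SE 0.84, edgeR adjusted p = 0.201), 1.55 for mwh (SE 0.44, 0.0885), 1.49 for m (SE 0.45, 0.117), 1.37 for sha (SE 0.64, 0.404), 1.33 for nyo (SE 0.65, 0.445), 1.13 for f (SE 0.52, 0.397) and 0.85 for pio (SE 0.68, 0.763). mwh passed without HDAC3 shRNA replicate 3 (1.99, adjusted p = 0.0295).

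In the blocked fit 5 of these genes rose in rescue WT over the knockdown, against 8.52% of all genes called higher. They were dyl (2.43, adjusted p = 0.0136), f (1.34, 9.08e-04), m (1.49, 0.0160), mwh (1.56, 6.75e-04) and nyo (1.60, 0.00810). The ratios between libraries of the same number were above 0 on the log2 scale in 28 of 28 cases. mwh in rescue WT was at 4.52, 5.97, 8.85 and 10.6 CPM, below the same-numbered control in 4 of 4 pairs, and its log2 fold change against Control was -0.84 (SE 0.42, adjusted p = 0.922). dyl in rescue WT was at 10.3, 22.6, 7.78 and 38.8 CPM, a range that overlapped widely with that of the control. ovo was at 89.5, 61.6, 59.7 and 39.2 CPM, below the knockdown in 4 of 4 pairs (-0.41, SE 0.41, adjusted p = 0.800), and sn was lower in 4 of 4 pairs as well (-0.36, SE 0.22, adjusted p = 0.638).

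In rescue K26A the means of the 7 genes stood at 15.4% to 53.1% of the control mean, with a median of 25.6%. In HDAC3 shRNA they stood at 17.4% to 48.0%, with a median of 30.4%. Against Control, 3 of 9 members were called lower, the same genes as in HDAC3 shRNA, while 3.14% of all genes were called lower and 3.44% in either direction. These comparisons share the control libraries. mwh levels were 1.71, 2.58, 2.41 and 5.24 CPM (a change of -2.17, SE 0.44, edgeR adjusted p = 0.00842), sha at 1.19, 0.729, 1.12 and 2.17 CPM (-2.70, SE 0.67, 0.0260) and m at 3.06, 2.52, 0.983 and 1.69 CPM (-1.96, SE 0.46, 0.0194). For these genes, dyl and nyo, 5 of 9 members, every K26A library was below every control library, a separation downward that 6.65% of all genes showed. The members' median log2 fold change was -1.82, against 0.111 over all genes tested.

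The mwh call against Control remained in all 24 fits without 1 library (adjusted p = 0.00298 to 0.0338). The call for m was lost without control replicate 3 (0.0509) or 4 (0.0573) or K26A replicate 3 (0.0549) or 4 (0.0537). That for sha was lost without control replicate 3 (0.0598) or 4 (0.0572) or K26A replicate 1 (0.0692), 2 (0.0833) or 3 (0.0582). dyl had a log2 fold change of -2.54 (SE 0.85, 0.102), nyo of -1.82 (SE 0.66, 0.136), f of -0.92 (SE 0.52, 0.413) and pio of -0.91 (SE 0.68, 0.564). With the block all 7 were called lower, against 11.1% of all genes: mwh (-2.17, adjusted p = 3.41e-05), sha (-2.70, 0.00328), m (-2.02, 0.00268), dyl (-2.36, 0.0172), nyo (-1.86, 0.00291), pio (-1.10, 0.00122) and f (-1.02, 0.00528). DESeq2 called 5 lower (dyl, m, mwh, nyo and sha), against 5.68% of its genes. In replicates 1 and 2 alone f, m, mwh, nyo and pio were called lower and ovo higher, against 10.8% of all genes in either direction. In replicates 3 and 4 alone 3 were called lower (m, mwh and nyo), against 302 of 10279 genes called lower.

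No member was called between rescue K26A and HDAC3 shRNA (0.19% of genes), which does not show that the levels were equal. The ratios of same-numbered libraries for the 7 genes fell on both sides, with 12 of 28 below 0 on the log2 scale and a range from -2.36 to 4.22. These wide ratios come from single pairs of libraries. No member had an unadjusted p below 0.05 (4.12% of all genes), and DESeq2 called none (0.573%). Against rescue WT, which differs from K26A only in the transgene, none was called (0.13% of genes), yet all 28 ratios of same-numbered libraries were below 0, with a median log2 ratio of -1.43. The fitted log2 fold changes were -2.42 for dyl (SE 0.85, adjusted p = 0.475), -1.74 for m (SE 0.46, 0.192), -1.33 for mwh (SE 0.43, 0.425), -1.76 for sha (SE 0.65, 0.523) and -1.49 for nyo (SE 0.65, 0.754). In the blocked fit 4 members were called lower in K26A than in WT, against 1.87% of all genes: f (-1.13, adjusted p = 0.0200), m (-1.77, 0.0323), mwh (-1.33, 0.0170) and nyo (-1.54, 0.0479). At an unadjusted p below 0.05 there were 5 members (5.54% of all genes), and DESeq2 called m alone (-1.73, adjusted p = 0.0241, against 0.667% of its genes).

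ovo in rescue K26A split by replicate number. It stood at 141 and 89.1 CPM in replicates 1 and 2, above both same-numbered controls, and at 47.8 and 30.8 CPM in replicates 3 and 4, below them. Over all 4 numbers the log2 fold change was 0.78 (SE 0.41, edgeR adjusted p = 0.357). Within replicates 1 and 2 it was 1.28 (adjusted p = 0.0211), and within replicates 3 and 4 it was -0.22 (adjusted p = 0.801). sn in K26A was at 488, 393, 382 and 329 CPM (0.21 against Control, SE 0.22, adjusted p = 0.712).

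**Figure D3:**
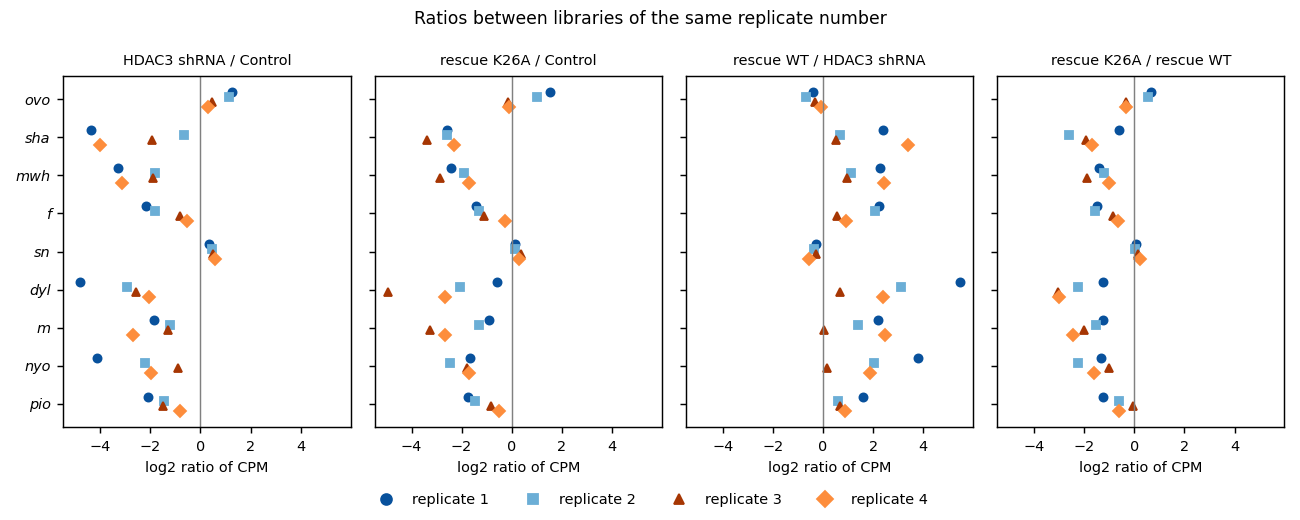
Log2 ratio of CPM between libraries of the same replicate number (horizontal axis), for each gene (vertical axis), with 1 symbol per number. The 7 genes other than ovo and sn lie below 0 in all 28 cases in HDAC3 shRNA over Control, in K26A over Control and in K26A over WT, and above 0 in all 28 in WT over HDAC3 shRNA. ovo and sn were set apart after their values were seen.

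In rescue Y303F the 7 genes were below the same-numbered control in 28 of 28 ratios (median log2 ratio -0.91) and above the knockdown in 21 of 28, and they differed in how far they stood from each. mwh was at 7.46, 8.14, 13.2 and 8.93 CPM, above every HDAC3 shRNA library, and was called higher than in the knockdown (log2 fold change 1.88, SE 0.44, edgeR adjusted p = 0.0410). It was the only member called, among 0.71% of genes called in either direction and 0.54% called higher. The members differed between the replicate numbers. In replicates 1 and 2 alone 5 (f, m, mwh, nyo and pio) were called higher and ovo lower, against 10.5% of all genes called, with a median of 1.39 over the 9, whereas in replicates 3 and 4 alone none was called and the median was -0.50, with 6 of 9 below 0. The mwh call over all replicates depended on single libraries: it was lost in 13 of the 24 fits, those without control replicate 4, HDAC3 shRNA replicates 1, 2 or 4, rescue HEBI replicates 1, 2 or 3, rescue K26A replicate 2, rescue WT replicate 3 or any Y303F replicate (adjusted p = 0.0508 to 0.151). With the block mwh (1.95, adjusted p = 5.96e-05) and pio (1.01, 0.00210) were called higher, against 6.59% of all genes.

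sha, in contrast, was at 2.40, 1.65, 0.712 and 1.18 CPM in Y303F, below every control library and inside the range of the knockdown. No member was called against Control in Y303F, where 0.74% of genes were, while 3 had an unadjusted p below 0.05 (10.8% of all genes) and DESeq2 called sha (2.75%). The log2 fold changes were -2.51 for sha (SE 0.66, adjusted p = 0.0764), -2.28 for dyl (SE 0.84, 0.250), -1.33 for nyo (SE 0.65, 0.469) and -0.50 for mwh (SE 0.42, 0.907). sha passed without HDAC3 shRNA replicate 1 (-2.50, 0.0341) or rescue HEBI replicate 2 (-2.59, 0.0442), and with the block sha (-2.36, 0.0175) and dyl (-2.20, 0.0440) were called lower, against 4.8% of all genes. dyl was at 2.18, 8.65, 6.51 and 0.801 CPM and m at 4.28, 5.97, 3.46 and 0.885 CPM, both with replicate 4 the lowest. ovo was at 57.5, 40.0, 56.9 and 23.8 CPM, below the knockdown in 4 of 4 pairs (-0.90, SE 0.41, adjusted p = 0.466, and -0.88 with the block, adjusted p = 0.00810). No member was called between Y303F and rescue WT (0.02% of genes) by edgeR or by DESeq2 (0.386%), and 2 had an unadjusted p below 0.05 (4.13%).

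In rescue HEBI no member was called against Control (0.58% of genes), HDAC3 shRNA (1.68%), rescue WT (0.04%) or rescue K26A (0.22%). At an unadjusted p below 0.05 there were 5, 0, 1 and 0 members in the same order, against 8.34%, 15.1%, 3.88% and 5.4% of all genes. DESeq2 called mwh against Control (1.37% of its genes) and none in the others (2.88%, 0.242% and 0.491%). In replicates 1 and 2 alone f and pio were called higher and ovo lower, both against HDAC3 shRNA (13.9% of all genes called) and against K26A (8.25%). The 7 genes stood at 23.2% to 89.6% of the control mean, with a median of 37.1%, and 26 of 28 ratios to the same-numbered control were below 0 on the log2 scale. mwh was at 3.34, 2.64, 5.27 and 5.76 CPM, with no library as high as the lowest control, and its log2 fold change was -1.65 (SE 0.43, edgeR adjusted p = 0.0943, or 0.0438 without HDAC3 shRNA replicate 1). The changes against Control were -1.90 for sha (SE 0.64, 0.279), -2.11 for dyl (SE 0.83, 0.414), -1.43 for nyo (SE 0.65, 0.537) and -1.10 for m (SE 0.45, 0.442). With the block mwh (-1.64, adjusted p = 0.00100), nyo (-1.56, 0.0249) and sha (-1.95, 0.0458) were called lower, against 3.03% of all genes.

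f and pio, which stood at 1.74, 2.12, 4.58 and 3.88 CPM and at 6.12, 4.42, 17.0 and 18.5 CPM in HEBI, were the nearest to the control mean of the 7 genes there. With the block both were called higher in HEBI than in HDAC3 shRNA (f 1.02, adjusted p = 0.00368, and pio 1.07, 9.63e-04), against 9.56% of all genes. mwh had a log2 fold change of 0.73 over the knockdown (SE 0.43, adjusted p = 0.429). ovo in HEBI was at 61.6, 34.6, 69.5 and 36.2 CPM, below the knockdown in 4 of 4 pairs (-0.72, SE 0.41, adjusted p = 0.412, and -0.65 with the block, adjusted p = 0.0345).

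The members also varied with replicate number within a genotype. In Control all 7 genes other than ovo and sn had higher means in replicates 3 and 4 than in replicates 1 and 2, by 1.67 to 2.73 times. The same held in HDAC3 shRNA, by 1.20 to 5.97 times. In rescue Y303F it held for 3 of 7, since sha, dyl, m and nyo were lower there in replicates 3 and 4. sn ran the other way in every genotype, from 0.647 times in Y303F to 0.807 times in K26A, and ovo in every genotype except HEBI, where the ratio was 1.10.

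Over the 24 libraries the 7 genes correlated positively with each other, with Pearson r of log2 CPM from 0.15 to 0.90 over 21 gene pairs and a median of 0.68. The strongest pair was f with pio (0.90), and the weakest was m with pio (0.15). ovo correlated negatively with each of the 7, from -0.62 with pio to -0.014 with m, and so did sn, from -0.80 with pio to -0.15 with m, while ovo and sn correlated at 0.69. After subtraction of the mean of each replicate number, r among the 7 ran from 0.47 (dyl with pio) to 0.90 (dyl with m). After subtraction of the genotype means instead, r among the 7 ran from -0.27 (m with pio) to 0.91 (f with pio), with a median of 0.44 and 19 of 21 pairs positive. On that scale m was positive with both ovo (0.34) and sn (0.22). These values are descriptions over libraries that share genotypes, replicate numbers and depth, and genes are not independent of each other.

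**Figure D4:**
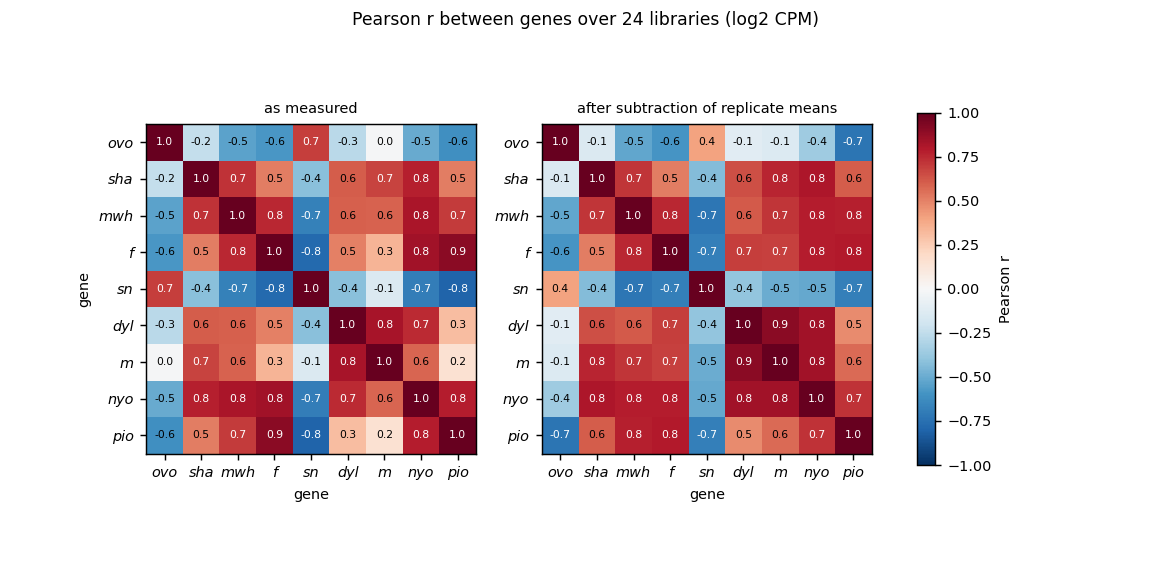
Pearson r between genes over 24 libraries (log2 CPM), as measured and after subtraction of the mean of each replicate number. The 7 genes other than ovo and sn are positive with each other in both panels, and ovo and sn are negative with these and positive with each other.

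The gene with the profile most like ovo was dx, an E3 ligase gene of the Notch pathway (r = 0.97 over 24 libraries, 0.96 after subtraction of the replicate means). The next were ssh, a cofilin phosphatase gene (0.97 and 0.95), HDAC4 (0.96 and 0.95), the bZIP factor gene cnc (0.96 and 0.96) and CG14073 (0.95 and 0.90). After subtraction of the replicate means srl, CG4612, mei-P26 (each 0.97), dx and Cdc7 (each 0.96) led. The mean profile of the other 8 members was most like Tig, which encodes an integrin ligand of muscle attachment (0.98 and 0.97), Np, a membrane serine protease gene (0.97 and 0.97), ImpE1 (0.97 and 0.96), dsx-c73A (0.96 and 0.97) and the unnamed row FBgn0033359 (0.95 and 0.95). After subtraction of the replicate means pwn, a gene needed for normal bristles and hairs (0.96), took the place of FBgn0033359.

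Genes around the pathway were read from lists that were chosen with earlier results known. Of the 12 measured genes known to act on ovo activity or expression, 8 passed the filter and none was called in HDAC3 shRNA against Control by edgeR, with a median log2 fold change of -0.36 and none at an unadjusted p below 0.05. Over all genes tested, 8.37% were called and 2475 of 10003 had an unadjusted p below 0.05. This list split by replicate number: in replicates 1 and 2 alone 6 of the 8 were called lower (median -1.19, against 14.5% of all genes) and in K26A against Control 5 (median -1.03, against 7.16%). In replicates 3 and 4 alone none was called in either comparison by edgeR, with medians of -0.03 and 0.35. The 4 rows for tal peptides were listed at 0 in all 24 libraries, and wg was not matched. Ubr3, which acts with the tal peptides on the ovo protein, had a change of 0.59 (SE 0.40, adjusted p = 0.373). The smallest adjusted p was that of Ser, a Notch ligand gene, at 8.42, 5.37, 13.1 and 7.62 CPM in the control and 1.23, 1.66, 7.57 and 5.21 CPM in the knockdown (-1.14, SE 0.58, adjusted p = 0.232), which was called with the block (-1.38, 0.00107).

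Of 8 ZP domain genes outside the members, 2 fell, with a median of -1.06 over the 8, and with the block 4 were called lower (neo, nompA, dpy and mey). Over all genes tested, 6.97% were called lower, and 17.3% with the block. neo, another gene of the denticle matrix, was at 18.4, 16.9, 35.2 and 37.4 CPM in the control and 0.875, 6.68, 8.60 and 4.15 CPM in the knockdown (-2.41, SE 0.54, edgeR adjusted p = 0.00775). nompA, which links sensory neurons to the cuticle, was at 3.35 ± 1.20 CPM in the control and 0.465 ± 0.370 CPM in the knockdown (-2.82, SE 0.69, adjusted p = 0.0135). Both groups of libraries were apart for each gene, and both were called in each of the 24 fits that left out a library, at adjusted p of 0.0374 or less. The summed level of the 8 ranged from 55.8 to 155 CPM in Control, 15.6 to 71.9 in HDAC3 shRNA, 43.3 to 112 in rescue WT, 39.6 to 77.2 in Y303F, 18.0 to 76.8 in K26A and 19.1 to 90.7 in HEBI.

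Of 12 measured genes of actin and its regulators outside the members, 1 fell (6.97% of all genes tested were called lower) and the median was 0.21. This was jv, which is needed to bundle actin in hairs and bristles, at 0.886, 1.01, 1.93 and 1.65 CPM in the control and 0.117, 0.390, 0.540 and 0.157 CPM in the knockdown (-2.16, SE 0.59, edgeR adjusted p = 0.0235). The jv call was lost without control replicate 3 (0.0706) or 4 (0.0556) or HDAC3 shRNA replicate 1 (0.0837) or 4 (0.0646). Of 11 measured planar polarity genes, which place mwh protein in wing cells, 1 fell, against 6.97% of all genes, and the median was -0.27. With the block 4 were called lower, against 17.3% of all genes: pk, dgo, in and stan. pk, a core polarity gene, went from 10.6, 12.2, 16.1 and 12.5 CPM to 1.40, 2.49, 5.21 and 3.45 CPM (-2.03, SE 0.37, adjusted p = 0.00193).

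In rescue K26A against Control, the called genes of these lists were neo (-2.40, edgeR adjusted p = 0.0160), the ZP gene mey (-2.58, 0.0427), jv (-2.20, 0.0387) and pk (-1.77, 0.0101), all lower, against 3.14% of all genes. mey, dpy, dy, dgo, in and stan are named because of these calls, after their values were seen. With the block 5 of the other ZP domain genes (neo, dpy, mey, nompA and dy), 3 planar polarity genes (pk, stan and in) and 1 gene acting on ovo (Ser, -1.27, adjusted p = 0.00431) were called lower. In that fit 11.1% of all genes were called lower. The medians were -1.42 for the other ZP domain genes, 0.19 for the actin genes, -0.09 for the planar polarity genes and 0.03 for the genes acting on ovo. In rescue WT against HDAC3 shRNA none of the genes in these lists was called by edgeR, with medians of 0.69, -0.14, 0.30 and 0.47 in the same order and with 3, 1, 3 and 0 genes at an unadjusted p below 0.05. Over all genes, 1.04% were called and 11.4% had an unadjusted p below 0.05. With the block 3 of the other ZP domain genes (neo, nompA and mey), 3 planar polarity genes (pk, in and stan) and 1 actin gene (jv, 1.67, adjusted p = 0.00716) were called higher there. The share of all genes called higher in the blocked fit was 8.52%.

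Lists of markers of other cells and stages differed in how they moved between the genotypes. Late epidermal genes of cuticle and chitin summed to 86.2 to 636 CPM in Control, 5.25 to 67.1 in HDAC3 shRNA, 87.4 to 228 in rescue WT, 38.0 to 75.5 in Y303F, 30.1 to 96.2 in K26A and 32.1 to 285 in HEBI. Of the 10, the 9 that passed the filter were all called lower in the knockdown, against 6.97% of all genes tested. The 9 had a median log2 fold change of -2.24, and knk did not pass the filter. Among them kkv, the epidermal chitin synthase gene, fell from 20.5 ± 10.2 to 5.76 ± 3.83 CPM (-1.83, edgeR adjusted p = 0.0152, lost at 0.0611 without control replicate 3 and at 0.0540 without HDAC3 shRNA replicate 1), and Gasp from 20.8 ± 7.07 to 4.42 ± 2.92 CPM (-2.23, adjusted p = 0.0155). TwdlD and TwdlM were each at 0 in 3 of 4 knockdown libraries, and at 4.45 ± 5.60 and 58.4 ± 93.4 CPM in the control. The control libraries of TwdlM spread widely, at 2.02, 35.1, 196 and 0.107 CPM. The TwdlM call was lost without control replicate 3 or HDAC3 shRNA replicate 1, 2 or 4 (adjusted p = 0.0615 to 0.0645).

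Muscle genes, which are used late and outside the epidermis, summed to 199 to 1495 CPM in Control, 12.5 to 277 in HDAC3 shRNA, 261 to 727 in rescue WT, 81.1 to 343 in Y303F, 103 to 297 in K26A and 56.3 to 882 in HEBI. Of the 7 measured, 6 were called lower in the knockdown (median -3.18), against 6.97% of all genes, and 7 with the block, against 17.3%. They included Tm2 (-3.48, adjusted p = 0.0276), Mlc2 (-3.18, 0.0304), TpnC47D (-3.30, 0.0321) and up (-3.15, 0.0324). All 4 calls were lost when control replicate 3 was left out, or any of HDAC3 shRNA replicates 1, 2 and 4, and for TpnC47D and up this held for control replicate 4 as well (adjusted p = 0.0549 to 0.140). Ectoderm markers summed to 1976 to 2773 CPM in Control and 1760 to 2810 CPM in the knockdown. On average arm alone held 1656 of the 2504 CPM in Control, so the sum mostly follows this gene. None of the 8 was called by edgeR (median -0.40), against 8.37% of all genes, and the smallest adjusted p was that of grh (-0.61, 0.579). With the block grh changed by -0.80 (edgeR adjusted p = 0.00565), past the p threshold and under 2-fold. It changed by -1.40 in replicates 1 and 2 alone (0.104) and by -0.30 in replicates 3 and 4 alone (0.701).

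Early blastoderm genes summed to 1228 to 3916 CPM in Control and 1300 to 2198 CPM in HDAC3 shRNA. On average slam alone held 1346 of the 2400 CPM in Control. Of the 9 that passed the filter 1 was called lower (median -0.47), against 6.97% of all genes. This was Z600, an inhibitor of early mitosis (-1.39, edgeR adjusted p = 0.0280, lost without control replicate 1 or 2 or HDAC3 shRNA replicate 1, 2 or 3, 0.0602 to 0.0980). Z600 changed by -2.13 in replicates 1 and 2 alone and by -0.28 in replicates 3 and 4 alone (adjusted p = 0.670). The early blastoderm sum averaged 1907 CPM in the knockdown against 3569 in the control in replicates 1 and 2, and 1616 against 1232 in replicates 3 and 4. Sry-alpha was listed at 0 in all 24 libraries. Germline and germ plasm markers, which mark egg RNA and pole cells, where ovo is also expressed, summed to 220.3 to 409.6 CPM in Control, 376 to 845 in HDAC3 shRNA, 252 to 592 in rescue WT, 226 to 449.7 in Y303F, 253 to 863 in K26A and 198 to 409 in HEBI. Of these 9 genes 2 rose in the knockdown, stil (2.16, adjusted p = 7.58e-04) and bam (1.67, 0.00775), and the median was 0.78. With the block otu was called too (1.42, 0.00170). Of the 10003 genes tested, 140 were called higher in the main fit and 275 with the block. The germline sum averaged higher in replicates 1 and 2 than in replicates 3 and 4 in every genotype. The means were 399.7 against 246.8 CPM in Control, 813 against 409 in HDAC3 shRNA and 584 against 254 in rescue WT. They were 444 against 253 in Y303F, 840.0 against 256 in K26A and 379 against 226 in HEBI. For ovo, replicates 3 and 4 stood at 0.342 times replicates 1 and 2 in K26A, 0.922 in Control and 1.10 in HEBI. In K26A against Control no late epidermal, muscle, early blastoderm or germline marker was called by edgeR, with medians of -1.56, -2.18, 0.08 and 0.65 and with 3, 7, 0 and 3 genes at an unadjusted p below 0.05, and with the block 3 late epidermal and 7 muscle genes were called lower. Over all genes, 3.44% were called, 1653 of 10003 had an unadjusted p below 0.05, and 11.1% were called lower with the block. In rescue WT against HDAC3 shRNA 2 late epidermal genes were called higher, TwdlD and Gasp, and no muscle gene (6 at an unadjusted p below 0.05), with list medians of 2.39 for late epidermal and 2.03 for muscle genes, and with the block 7 of each list were called higher. There 0.88% of all genes were called higher, 11.4% had an unadjusted p below 0.05, and 8.52% were called higher with the block. The part of embryo age, of other cell types and of egg RNA in the members' differences was not tested.

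**Figure D5:**
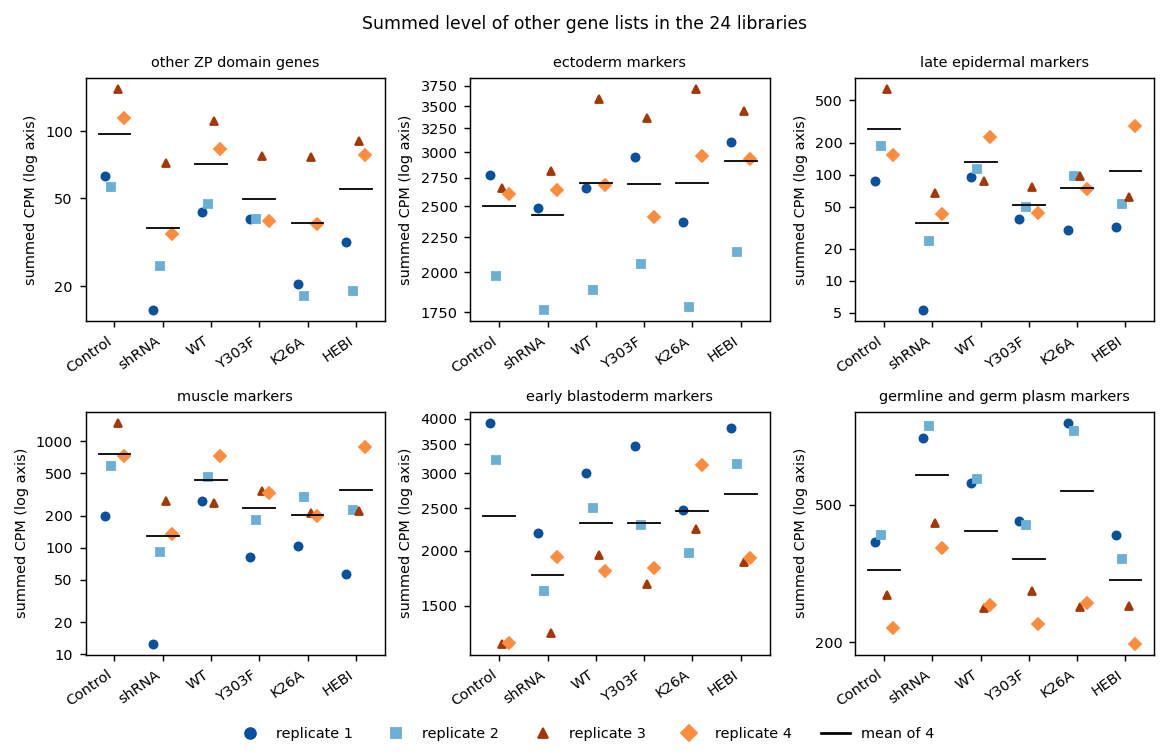
Summed CPM (log axis) of 6 other gene lists in the 24 libraries, by genotype, with 1 symbol per replicate number and a line at the mean of 4. Late epidermal, muscle and other ZP domain genes are lower in HDAC3 shRNA than in Control within each number. Ectoderm markers overlap, and arm alone makes up most of their sum in Control. Germline markers average higher in replicates 1 and 2 than in replicates 3 and 4 in every genotype, from 399.7 against 246.8 CPM in Control to 840.0 against 256 CPM in K26A.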

How the data were processed

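The deposited values are raw counts per gene, which the authors obtained from stranded total RNA reads by STAR alignment to dm6 and featureCounts. The submitters' processing notes name DESeq2. Their versions and the strand setting were not given in the sources used here. Members, lists and rules were chosen with earlier results of these data known. Symbols, positions and exon lengths came from Ensembl annotation of the same build, which named 17253 of 17559 rows, and 306 rows without a symbol, with 5.23% to 6.20% of the counts, stayed in totals. No sequences were used.

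The main model used edgeR 4.0.16 (R 4.3.3) with TMM scaling (factors 0.862 to 1.23), filterByExpr (10003 genes), and 1 quasi-likelihood model over all 24 libraries with a mean per genotype and no block, as the study states none. In all, 13 contrasts were tested. Calls needed at least a 2-fold change with p, adjusted by Benjamini-Hochberg over all genes, at or below 0.05. Log2 fold changes are the first group over the second. Named genes were all members, up to 4 called genes of each list by smallest adjusted p in HDAC3 shRNA against Control (the 1 with the smallest where none was called), and the 5 most alike by Pearson r, with a prior count of 2. Ubr3 was added after its values were seen, as was the count of 7 genes without ovo and sn. The model was tested on simulated data.

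Replicate numbers are shared across genotypes by the labels. Over 60 pairs of libraries with the same number, deviations from the genotype means correlated at 0.18 to 0.80 (median 0.62). The main model did not use this pairing. The replicate block and the ratios of same-numbered libraries did. The median was 0.40 for other numbers on the same side of the split between replicates 1 and 2 and replicates 3 and 4, and -0.51 across it. The negative value follows in part from subtraction of the genotype means. The labels do not say what a number stands for. No duplicates were found among the 36 pairs of libraries within genotypes, and pairs across genotypes were not checked.

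Alternatives were DESeq2 1.42.0, its size factors, library totals alone, no filter, the replicate block, only the groups compared, replicates 1 and 2 or 3 and 4 alone, and leaving out each library in turn.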

Additional observations from a re-analysis of the deposited data

Results flagged for a closer look

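dyl in rescue K26A replicate 3 stood far from the other libraries of its genotype. It was at 0.938 CPM, the lowest of the 4, while the others lay between 4.36 and 4.88 CPM. The gap to the nearest library was 0.870 of the whole range, above Dixon's 95% critical value for 4 samples. In all 54 groups of 4 libraries (9 genes in 6 genotypes) were examined in this way, and chance alone marks about 1 group in 20.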

How the results depend on the processing

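The 48 member changes examined were recomputed under 32 alternatives each, 1536 values, of which 1439 kept their direction and their side of the threshold, 42 no longer passed, 54 newly passed and 1 reversed. The reversed value among these is ovo in rescue K26A against Control, at -0.22 in replicates 3 and 4 alone. The 48 do not cover every member in every comparison tested, and changes outside them also reversed. In Y303F against HDAC3 shRNA the members' median log2 fold change was 0.33 in the main fit, with 3 members below 0. In replicates 3 and 4 alone it was -0.50, with 6 below 0. Leaving out 1 library reversed others, such as dyl in HEBI against HDAC3 shRNA (-0.39 to 0.96 over these fits). With the replicate block the members called numbered 7 in HDAC3 shRNA, 2 in Y303F, 7 in K26A and 3 in HEBI against Control. Against HDAC3 shRNA the block gave 5 in rescue WT, 2 in Y303F and 2 in HEBI, and it gave 4 in K26A against rescue WT, and it changed no count in the other comparisons. DESeq2 called 5 members in HDAC3 shRNA, 1 in Y303F, 5 in K26A and 1 in HEBI against Control, 2 in rescue WT against HDAC3 shRNA and 1 in K26A against rescue WT. Replicates 1 and 2 alone gave 6 in HDAC3 shRNA and 6 in K26A against Control, 3 in rescue WT, 6 in Y303F and 3 in HEBI against HDAC3 shRNA, and 3 in HEBI against K26A, with 1 of each 6, and 1 of the 3 in each HEBI comparison, in the other direction (ovo). The shares of all genes called in these fits were 18.2%, 10.8%, 3.67%, 10.5%, 13.9% and 8.25%, in the same order. Replicates 3 and 4 alone gave 4 in HDAC3 shRNA and 3 in K26A against Control, all lower, and 0 in the other comparisons. Of 10279 genes tested there, 783 were called in HDAC3 shRNA and 349 in K26A against Control. With only the groups compared, 1 member was called in HDAC3 shRNA against Control. For Y303F against HDAC3 shRNA the count was 0 with library totals alone, 0 with no filter on low counts, 0 with only the groups compared and 0 in replicates 3 and 4 alone. The cause of these differences was not tested. Leaving out each library in turn gave 1 to 4 members called in HDAC3 shRNA, 0 to 1 in Y303F, 1 to 3 in K26A and 0 to 1 in HEBI against Control, and 0 to 1 in rescue WT and 0 to 1 in Y303F against HDAC3 shRNA.

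Library totals alone moved the median of all genes in HDAC3 shRNA against Control from 0.013 to -0.20 on the log2 scale. They also changed the split of called genes from 140 higher and 697 lower to 84 and 790 in HDAC3 shRNA, from 30 and 314 to 16 and 341 in K26A and from 22 and 36 to 14 and 44 in HEBI, each against Control, and from 4 and 9 to 2 and 10 in K26A against rescue WT. Depth limits the lowest members most: dyl had as few as 4 reads in a library, nyo 6, sha 6, f 10, mwh 16, m 21 and pio 32, against 388 for ovo and 3811 for sn.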
